A study of Mus musculus with 2 samples.

Results

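The unfolded protein response regulators described here are Xbp1, Atf4, Atf6, Ern1, Eif2ak3, Ddit3, Trib3, Herpud1, Edem1 and Sel1l. They were selected by gene symbol, and all 10 were found among the 24411 genes of the deposited tables, on 14 of 35034 transcript rows. The tables come from C57BL/6 mice (C57BL/6J males, aged 6 to 8 weeks when obtained, by the study's methods) that were injected intraperitoneally with 50% alum, an aluminium salt adjuvant, on days 0 and 14. The alum-injected group received the adjuvant alone, and the alum + KLH-immunized group also received keyhole limpet hemocyanin (KLH), a large foreign protein, at 100 µg. No untreated group was sequenced, so the label naïve on the control library stands for adjuvant alone. Thoracic and lumbar dorsal root ganglia (DRGs) were taken on day 28, digested at 37°C, enriched for neurons on an albumin layer and depleted of B lymphocytes with magnetic beads. The cells of 10 mice were pooled into 1 library per group. They are called the control pool and the immunized pool below. The spread between mice is therefore unknown and the effect of immunization was not tested, and fewer cells of a type cannot be told apart from less RNA per cell.

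The endoplasmic reticulum (ER) folds secreted and membrane proteins, and the unfolded protein response adjusts its capacity through 3 sensors in its membrane. The sensor IRE1, encoded by Ern1, cuts a short stretch out of the Xbp1 mRNA, and the spliced message encodes an active transcription factor. The sensor PERK, encoded by Eif2ak3, phosphorylates eIF2, which slows translation in general while favouring that of ATF4, and the sensor ATF6 is cleaved in the Golgi to free a transcription factor. Sensory neurons pass large amounts of channels, receptors and neuropeptides through this compartment, and the response is also known for its role in antibody-secreting plasma cells, which need XBP1.

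The values are TPM, a level per transcript that takes its length into account and is scaled to the same sum in each library. They can be compared between genes, but they do not carry the number of reads behind them, so the depth behind a value is unknown from the files. Neuronal markers were high in both pools, with all 9 pan-neuronal genes between 145.2 and 4278.5 TPM. Glial transcripts were also plentiful, as all 6 satellite glia genes were above 3 TPM, the detection threshold of the study, and 4 of 6 Schwann cell genes. The satellite glia genes summed to 1776.2 TPM in the control pool and 1652.7 TPM in the immunized pool, and the Schwann cell genes to 1860.9 and 1829.6 TPM. Of 10 plasma cell genes, 2 were above 3 TPM, Sdc1 and Prdm1. The 10 genes summed to 19.3 TPM in the control pool and 16.8 TPM in the immunized pool, most of it from Sdc1 at 12.4 and 10.6 TPM, while Mzb1 was listed at 0 in both. The 6 B lymphocyte genes and the 8 macrophage genes were all below 3 TPM, and 3 of 6 fibroblast genes and 1 of 6 endothelial genes were above it. The part of any of these cells in the results that follow was not tested.

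Of the 10 regulators, 8 were above 3 TPM in both pools. Atf4 was the highest and Ern1 the lowest, and the order of the levels was the same in both pools except that Atf6 and Edem1 changed places. Atf4 alone made up 41.0% of the summed TPM of the 10 genes in the control pool and 37.7% in the immunized pool. With a single library per group, it cannot be said which neighbours in this order would differ beyond the spread between mice.

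**Figure D1:**
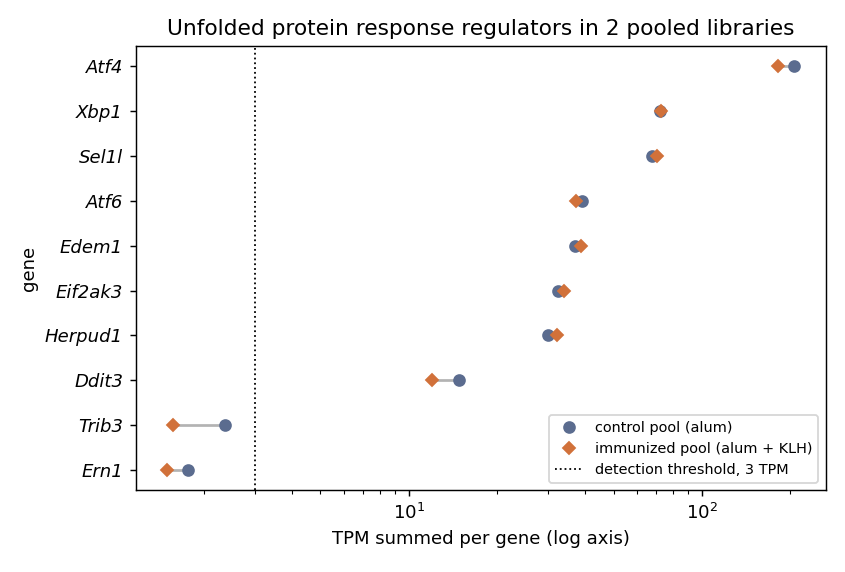
TPM summed per gene (log axis) for the 10 regulators, with circles for the control pool, diamonds for the immunized pool and a dotted line at 3 TPM. Atf4 stands apart at 206.6 and 182.1 TPM, 6 genes lie between 29.9 and 72.6 TPM, and Trib3 and Ern1 lie left of the threshold in both pools.

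The 3 sensors differed widely in level. Atf6 (16 exons on the minus strand of chromosome 1, 170704457 to 170868585 of GRCm38, the assembly of mm10) was at 39.0 TPM in the control pool and 37.3 TPM in the immunized pool. Eif2ak3 (17 exons on the plus strand of chromosome 6, 70844484 to 70905241) was at 32.3 and 33.9 TPM. Ern1 (22 exons on the minus strand of chromosome 11, 106397620 to 106487796) was at 1.77 and 1.5 TPM. The message of IRE1 was thus below the detection threshold in both pools, and the level of Eif2ak3 was 18.3 and 22.6 times that of Ern1. Among all genes of the tables, 51.8% and 52.7% had a higher value than Ern1. Ern2, which encodes another form of IRE1 known from mucosal epithelia, was at 0.085 and 0.037 TPM.

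Xbp1 encodes the transcription factor that IRE1 activates. It lies on chromosome 11 (5520641 to 5525993, plus strand, 5 exons), and its summed level was 72.0 TPM in the control pool and 72.6 TPM in the immunized pool. This level was exceeded by 11.6% and 11.4% of all genes and was 40.8 and 48.4 times that of Ern1. The 3 genes nearest to it in level over the 2 libraries were Mfn1, Ifnar1 and Cdr2, each within 0.01 on the log2(TPM + 1) scale, a likeness of level that rests on only 2 libraries.

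The tables hold Xbp1 on a pair of RefSeq rows. NM_013842 is known as the record of the unspliced message and NM_001271730 as that of the spliced one. The sequences of these records were not analysed here, so the identity of the rows was not checked, and GENCODE pairs both with a single transcript, ENSMUST00000063084. The site is shown here because only reads that cover it tell the spliced from the unspliced message. In that transcript, the loop motif that IRE1 cuts (CNGCNG, cut after its first G) occurs at a pair of positions 26 bases apart in exon 4, at chr11:5524279-5524304 of GRCm38, plus strand. Taking out these 26 bases, in capitals below with 30 bases on either side, lengthens the longest reading frame from 267 to 371 codons. The search was set to keep only pairs 26 bases apart whose removal lengthens that frame. The spacing and the longer frame therefore locate the site and are not results.
Unspliced Xbp1: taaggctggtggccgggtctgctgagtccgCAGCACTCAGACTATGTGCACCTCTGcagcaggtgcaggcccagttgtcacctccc
Spliced Xbp1: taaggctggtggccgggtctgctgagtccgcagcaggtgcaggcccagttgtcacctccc

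The row known as the spliced message carried most of the Xbp1 signal in both libraries. NM_001271730 was at 53.4 TPM in the control pool and 60.7 TPM in the immunized pool, and NM_013842 at 18.6 and 11.9 TPM. The spliced row thus held 74.1% of the gene's TPM in the control pool and 83.6% in the immunized pool, a shift of 9.41 percentage points at a nearly equal total. Expressed as spliced over unspliced TPM, the ratio was 2.87 and 5.08. This shift has no replicate check. It was set beside the same measure in other genes, with a limit of 5 percentage points chosen after the values had been seen. Of the 3392 genes with at least 2 rows and totals above 3 TPM in both pools, 41.2% had a row that moved by 5 points or more. Among 262 genes that resemble Xbp1, with 2 rows, a mean TPM within a factor of 2 of it and at least 10% of the control TPM on the lesser row, the share was 33.6%. Of these 262 genes, 16.4% moved by at least as much as Xbp1, so shifts of this size also occurred in other genes. Xbp1 itself was not left out of the 3392 or the 262 genes and is counted in each of these percentages. How many reads covered the 26 bases is not in the files, and where else these RefSeq rows differ was not examined.

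**Figure D2:**
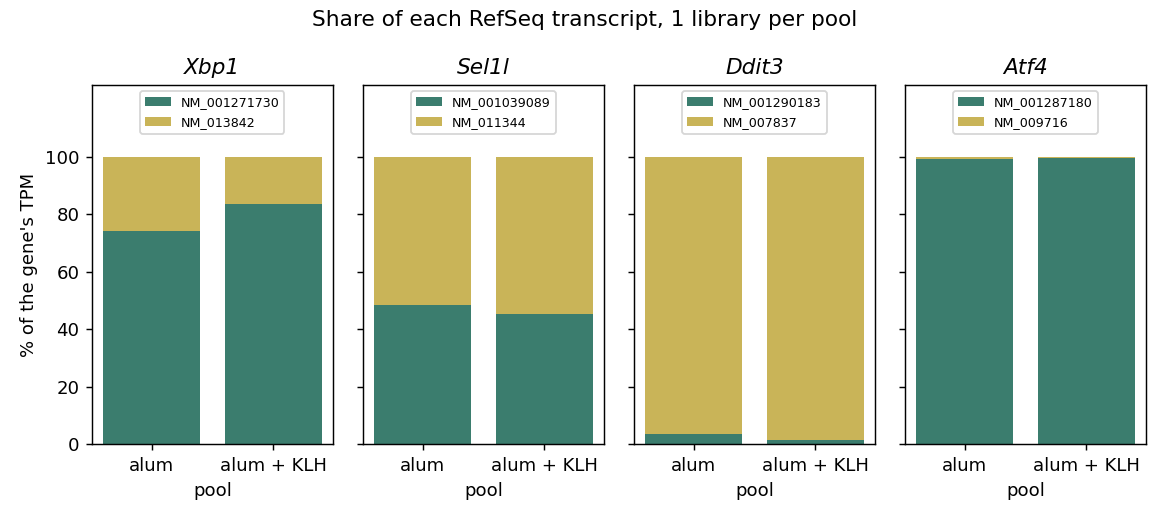
Percent of a gene's TPM on each of its RefSeq rows, for the 4 regulators with 2 rows, in the control pool (left bar) and the immunized pool (right bar), 1 library each. The spliced row of Xbp1, NM_001271730, goes from 74.1% to 83.6%, while the shares of Sel1l, Ddit3 and Atf4 move by 3.02, 2.06 and 0.119 percentage points.

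The other 3 genes with a pair of rows shifted less. Sel1l was divided almost evenly, with NM_011344 at 51.5% of its TPM in the control pool and 54.6% in the immunized pool. Ddit3 was carried by NM_007837 at 96.3% and 98.4%, and Atf4 by NM_001287180 at 99.4% and 99.5%. None of the 3 reached the limit of 5 percentage points.

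The genes downstream of PERK had the widest range. Atf4 (3 exons on the plus strand of chromosome 15, 80255184 to 80257545), which encodes the transcription factor whose translation rises when eIF2 is phosphorylated, was at 206.6 TPM in the control pool and 182.1 TPM in the immunized pool. Ddit3 (4 exons on the plus strand of chromosome 10, 127290793 to 127296291), which encodes CHOP, a transcription factor tied to cell death under lasting ER stress, was at 14.9 and 12.1 TPM. Trib3 (4 exons on the minus strand of chromosome 2, 152337425 to 152344060), a pseudokinase gene induced by ATF4 and CHOP, was at 2.37 and 1.57 TPM and so below 3 TPM in both pools. Levels fell from Atf4 to Ddit3 to Trib3 in each library, with Atf4 at 13.9 and 15.1 times Ddit3. All 3 had their lower value in the immunized pool. Among genes above 3 TPM in either pool, 43.6% had their higher value there.

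The remaining members act in ER-associated degradation, which returns misfolded proteins to the cytosol for the proteasome. Sel1l (21 exons on the minus strand of chromosome 12, 91806043 to 91849157), the adaptor of the HRD1 ubiquitin ligase, was at 67.8 TPM in the control pool and 70.6 TPM in the immunized pool. Edem1 (12 exons on the plus strand of chromosome 6, 108824045 to 108859356), which recognizes misfolded glycoproteins, was at 37.0 and 38.6 TPM. Herpud1 (8 exons on the plus strand of chromosome 8, 94386429 to 94395371), a membrane protein that organizes the HRD1 complex, was at 29.9 and 32.1 TPM. All 3 had their higher value in the immunized pool, by 4.15%, 4.26% and 7.40% in that order. So did 43.6% of the genes above 3 TPM in either pool. Each difference was smaller than the SD of genes of like level, given below.

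Herpud1 was also the only regulator whose start region held an exact match to any of the stress motifs searched. RefSeq promoters of 300 bases (250 before to 50 after the start, GRCm38.p6) were at hand for 9 of the 10 genes, all but Atf6, and both strands were searched. Only exact matches were counted, so a variant of a motif or an element outside these bases would be missed. The ER stress response element II (ATTGG and CCACG, 1 base apart) was found 52 bases before the Herpud1 start and in 0.0365% of all 32851 promoters. The amino acid response element TTGCATCA, which ATF4 binds, was found 112 bases before it and in 0.895% of all promoters. The ER stress response element (CCAAT and CCACG, 9 bases apart) and TGACGTGG, which XBP1 and ATF6 bind, were in 0.119% and 0.676% of all promoters and in none of the 9. Both Herpud1 matches are in capitals in this stretch of chr8:94386302-94386402, plus strand, shown because it carries both of the elements found.
Herpud1 promoter: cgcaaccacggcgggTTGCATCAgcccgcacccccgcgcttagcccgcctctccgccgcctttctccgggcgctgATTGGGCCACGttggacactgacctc

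The pools were compared by the log2 ratio of TPM + 1 in the immunized pool to TPM + 1 in the control pool, on which scale the change of low genes is understated. Each gene's ratio was read next to its SD among the 500 genes nearest in level, which describes how far like genes differ between the same libraries and is no test. A gene was called higher or lower where its TPM + 1 was at least 25% higher or at least 20% lower in the immunized pool, the same step on the log scale. None of the 8 regulators compared, those above 3 TPM, was called. Among the 11648 genes that exceeded 3 TPM in either pool, 2.29% were called higher in the immunized pool and 5.39% lower. A 1.5-fold difference was reached by 1% and 1.55% of these genes and likewise by none of the 8. The median log2 ratio was 0.035 over the 8 regulators and -0.020 over all genes compared. The 11648 genes include microRNAs and small nucleolar RNAs, which were not left out of the SD either. Without those rows, and with TPM rescaled, 1.47% of 11391 genes were called higher and 4.44% lower.

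Ddit3 was the furthest apart of the 8, with a log2 ratio of -0.28 against an SD of 0.21 among genes of like level, and the only one to exceed that SD. Atf4 followed with -0.18 against 0.21. Atf6, at -0.06, also had a lower value in the immunized pool. The ratio was 0.10 for Herpud1, 0.07 for Eif2ak3, 0.06 for Edem1 and Sel1l and 0.01 for Xbp1, each within an SD of 0.13 to 0.16. Expressing TPM relative to Hprt, the reference gene of the study's qPCR, lowers every ratio and takes the median of all genes compared from -0.020 to -0.101. On that scale Xbp1, Eif2ak3, Edem1 and Sel1l lay between -0.072 and -0.013 and Herpud1 at 0.02, all above that median. Trib3 and Ern1, below the threshold, had ratios of -0.39 and -0.15 against an SD of 0.60 and 0.93.

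**Figure D3:**
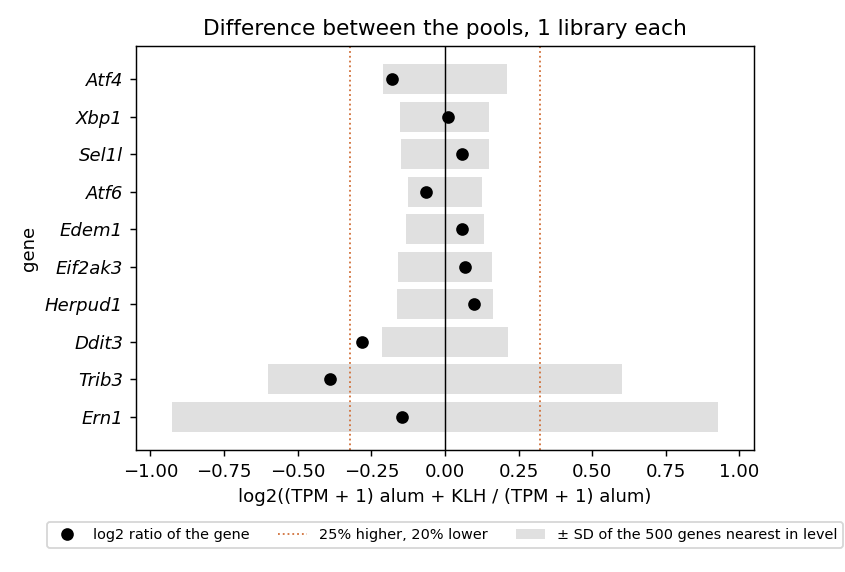
Log2 ratio of alum + KLH over alum for each regulator (points), with the SD of the 500 genes nearest in level as a grey bar to either side of 0 and dotted lines at 25% higher and 20% lower. The 8 genes above 3 TPM lie between the dotted lines, Ddit3 alone falls outside its grey bar at -0.28, and Trib3 at -0.39 lies inside a bar of 0.60.

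Further genes of the pathway were read from 6 lists, in which 140 distinct genes were named and all were found. Of these, 121 exceeded 3 TPM in either pool, and their median log2 ratio was -0.019. None was called higher in the immunized pool and 6 (4.96%) were called lower, where 5.39% of all genes compared were. None of the 121 was 1.5-fold apart on the scale of TPM + 1. The 6 genes are named because they are few, after their values had been seen.

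Among the partners of the sensors, 12 of 16 genes were above 3 TPM in both pools, and none of the 12 was called (median log2 ratio -0.020). The highest were Tmbim6, which encodes BAX inhibitor 1, a restraint on IRE1, at 81.4 and 78.2 TPM, and Rtcb, the ligase that joins the ends of the cut Xbp1 message, at 77.7 and 70.9 TPM. Nfyb, a subunit of the factor that binds beside ATF6, was at 48.1 and 53.0 TPM. Mbtps1 and Mbtps2, the proteases that free ATF6, are named beside it for that role, and were at 21.8 and 22.1 TPM and at 39.8 and 41.1 TPM.

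All 15 genes of the eIF2 machinery were above 3 TPM in both pools. Their median log2 ratio was -0.063, with 12 of 15 below 0. Of all genes compared, 43.6% were above 0, the median was -0.020 and 5.39% were called lower. The subunits of eIF2 itself were the highest, with Eif2s3x at 220.2 and 221.3 TPM, Eif2s2 at 210.2 and 198.6 TPM and Eif2s1, the subunit that PERK phosphorylates, at 115.8 and 112.2 TPM. Of the 2 genes called lower, Ppp1r15a encodes GADD34, which brings a phosphatase back to eIF2. It was at 14.8 TPM in the control pool and 10.3 TPM in the immunized pool (log2 ratio -0.48). The other, Eif2b4, a subunit of the exchange factor of eIF2, was at 7.19 and 5.23 TPM (-0.39). The other 3 eIF2 kinases, chosen for their role, were all detected, with Eif2ak2 (PKR) at 107.6 and 104.2 TPM, Eif2ak1 (HRI) at 79.9 and 74.9 TPM and Eif2ak4 (GCN2) at 6.76 and 6.68 TPM.

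Of 32 target genes of ATF4 and CHOP, 20 were above 3 TPM in both pools. Highest among them were Nars, an asparaginyl-tRNA synthetase gene, at 625.0 and 667.7 TPM, Asns, which encodes asparagine synthetase, at 292.7 and 300.1 TPM, and Atf3, a transcription factor known for its induction in injured sensory neurons, at 238.0 and 219.1 TPM. The other 12 were below the threshold in both pools, among them Chac1, a glutathione-degrading enzyme gene, at 2.74 and 2.11 TPM. Gdf15 was listed at 0 in both. Over the 20 genes the median log2 ratio was -0.014, and 3 were called lower, where 5.39% of all genes compared were. The count called lower on this list ranged from 1 to 7 with the processing, as described at the end. Ppp1r15a, which is also on this list, Slc7a5, an amino acid transporter gene, at 9.63 and 7.42 TPM, and Aldh18a1, an enzyme gene of proline synthesis, at 8.50 and 6.57 TPM were called lower in the immunized pool.

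The ER chaperones and oxidoreductases were abundant, with 24 of 26 genes above 3 TPM in both pools. Pdia3, a disulfide isomerase gene, was at 760.9 and 757.6 TPM, Canx, which encodes calnexin, at 680.3 and 687.4 TPM and Hsp90b1, which encodes GRP94, at 661.6 and 651.3 TPM. Hspa5, added for its role because its product BiP holds the sensors inactive, was at 523.4 and 567.5 TPM (log2 ratio 0.12). Dnajb9, a co-chaperone gene induced by spliced XBP1 and added for that role, was at 217.0 and 233.0 TPM. Both were higher in the immunized pool, but of the 24 genes compared on this list 11 were higher and 13 lower. The median log2 ratio of the list was -0.0046, and Fkbp2, a prolyl isomerase gene, was the 1 gene called, at 42.1 TPM in the control pool and 28.4 TPM in the immunized pool (-0.55).

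Among 29 further genes of ER-associated degradation, 27 were above 3 TPM in both pools and none of the 28 compared was called (median log2 ratio -0.011). Ube2j1, a ubiquitin-conjugating enzyme gene of this pathway, was at 469.3 and 528.1 TPM, Vcp, the ATPase that pulls proteins out of the membrane, at 494.1 and 487.5 TPM, and March6, a ubiquitin ligase gene, at 240.1 and 242.1 TPM. Syvn1, the ligase HRD1 to which SEL1L binds, is given for that reason. It was low, at 3.75 and 2.84 TPM, while Sel1l was at 67.8 and 70.6 TPM.

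All 25 genes listed under ER translocation were above 3 TPM in both pools. Spliced XBP1 is known to induce such genes in secretory cells. The list includes Sec23b, Sec24d and Sec31a, which act in export from the ER. Ssr3, a translocon-associated subunit, was at 393.6 and 410.3 TPM, Spcs1, a signal peptidase subunit, at 368.3 and 400.2 TPM and Srp14, of the signal recognition particle, at 372.8 and 321.9 TPM. The list was evenly divided, with 12 genes above and 13 below a log2 ratio of 0, and 1 gene, Ssr4, was called lower in the immunized pool, at 41.4 and 31.8 TPM.

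**Figure D4:**
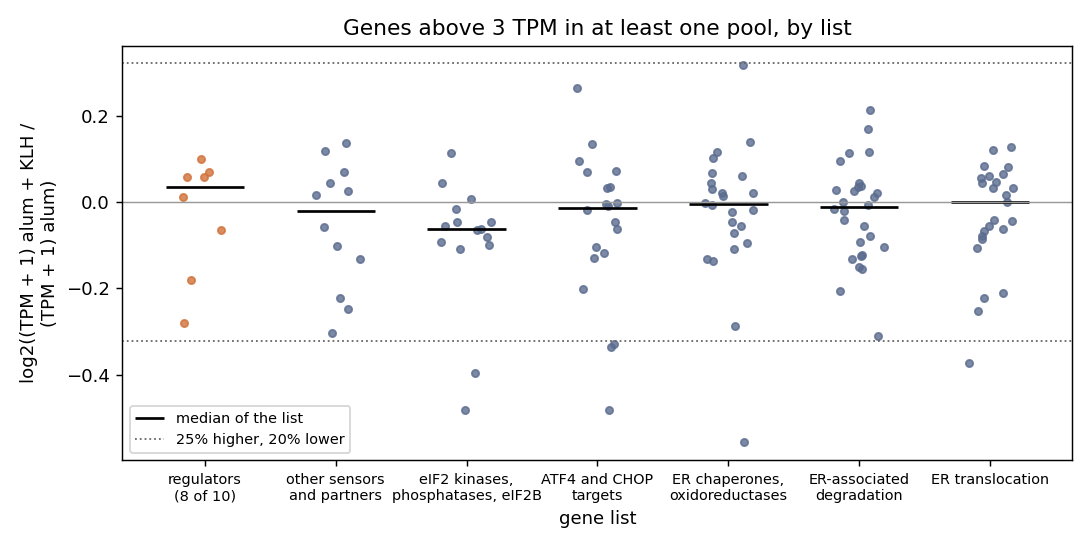
Log2 ratio of alum + KLH over alum for each gene above 3 TPM in either pool, by list, with the median of each list as a black line and dotted lines at 25% higher and 20% lower. The 8 regulators lie between -0.28 and 0.10, the medians of the 6 further lists lie between -0.063 and about 0, and the points past the lower dotted line are Ppp1r15a (on 2 lists), Eif2b4, Slc7a5, Aldh18a1, Fkbp2 and Ssr4.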

How the data were processed

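The authors prepared stranded mRNA libraries, trimmed paired-end reads with cutadapt and quantified them with kallisto against the annotated mm10 transcriptome, and versions are not given in the sources used here. The values the authors deposited are TPM, given per RefSeq transcript and already divided among the transcripts of a gene by kallisto. The methods give a minimum sequencing depth, but the tables hold no counts of reads for any gene or transcript, so the precision of each value is unknown and no interval was computed.

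TPM was summed over the rows of a gene symbol. Genes that exceeded 3 TPM in either pool were compared, with a pseudocount of 1 TPM. The members and lists were chosen with earlier results of these data known. Named genes were all members, the 3 highest genes of each list and compared genes at least 1.5-fold apart on the scale of TPM + 1. A few further genes were added for their known role after the values had been seen. Nearest neighbours of a level were taken over genes compared, or over all genes for Trib3 and Ern1. Sequence shared with other genes was read as 31-mers of the GENCODE M21 transcripts: 8.88% of those of Eif2ak3 were shared with the opposite-strand Gm43292, 4.42% of those of Ddit3 with Mars, and at most 0.0554% for the other members. The strand setting of the quantification is not given in the sources used here. The log2 ratio and the SD of genes of like level were tried on simulated data, with changes larger than the calls used here. The calls themselves, the transcript shares, the lists and the sequence searches were not tested in this way. Python 3.11.15, numpy 2.4.6, pandas 2.3.3 and matplotlib 3.10.9 were used.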

Additional observations from a re-analysis of the deposited data

How the results depend on the processing

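No paired analysis was possible because each group is a single library. Tried in turn were a detection threshold of 1 or 10 TPM, a pseudocount of 0.1 or 0.5 TPM, the row with the most TPM in place of the sum, division of the immunized pool by the median ratio of detected genes (0.987) or by the ratio of Hprt (1.06), leaving out 1470 rows of microRNAs and small nucleolar RNAs, and a filter of 0 or 10 TPM. The count of regulators above the threshold in both pools went from 8 to 10 at 1 TPM and was 8 under the others. The count of regulators called lower went from 0 to 1 relative to Hprt, where it was Ddit3, and to 1 without a filter, where Trib3 entered, and was 0 under the others. Of all genes, 9.51% were called lower relative to Hprt and 4.34% without a filter. In the further lists, targets of ATF4 and CHOP called lower went from 3 to 7 without a filter and to 1 when rescaled by the median ratio or filtered at 10 TPM. The count called lower ranged from 0 to 2 for ER-associated degradation and ER translocation, from 1 to 2 for the eIF2 machinery and the chaperones and from 0 to 1 for the partners of the sensors. A single gene was called higher among the ATF4 and CHOP targets on the row with the most TPM and among the chaperones when rescaled by the median ratio. The median log2 ratios of the regulators and the 6 further lists lay between -0.146 and 0.064 and each moved by less than 0.1 from its reported value. Of 60 member ratios, 59 moved by less than the SD of genes of like level. The exception was Xbp1 on its highest transcript, the spliced row, at 0.18. Keeping only transcript rows of at least 1 TPM in either pool removed no row of Xbp1, Sel1l or Atf4. Their shares could not change, so this is no check of the Xbp1 shift. Ddit3 lost its lesser row, and its shift went from 2.06 to 0 percentage points. The libraries hold no replicate, so nothing here measures the spread between mice.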
